A study of Mus musculus with 6 samples.

Results

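The genes that build and break down liver glycogen were examined in mice that lack CREB-H and received the active factor or a control protein through a viral vector. The set holds 9 genes out of 22180 that the array's annotation names by a single symbol. They are Gys2, Pygl, Gbe1, Ugp2, Phka2, Ppp1r3b, Ppp1r3c, Ppp1r3g and Gsk3b. They were chosen by name for their roles, with earlier results of these data known. All 9 were measured and all 9 were tested, because no filter on low values was applied. Each is represented by 1 probe set, and only Ppp1r3b has a further one, so that 10 of the 41345 probe sets belong to the set.

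All 6 mice carried the knockout allele Creb3l3tm1.1Sad/J, were 8 weeks old, ate a normal diet and lived under a light and dark cycle. CREB-H, the product of Creb3l3, is a membrane-bound transcription factor of the liver that is released by cleavage. The treated group of 3 mice was injected with AAV-CREB-H-ΔTC, a liver-directed adeno-associated virus that encodes the active form, and the control group of 3 mice was injected with AAV-GFP, which encodes green fluorescent protein. Injection was intraperitoneal. Livers were collected 2 weeks later, and RNA of each was read on 1 array. The mice are listed as biological replicates, and the labels give neither the promoter of the vector, the sex of the mice, the hour of collection nor whether food was withdrawn. The controls share the knockout, so the comparison is between the factor supplied by a vector and its absence, not between knockout and wild-type mice.

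Glycogen is the store of glucose in the hepatocyte. Ugp2 makes UDP-glucose, glycogen synthase (Gys2 in liver) adds its glucose to the chain, and the branching enzyme Gbe1 makes the branch points. Glycogen phosphorylase (Pygl in liver) releases glucose 1-phosphate and is switched on by phosphorylase kinase, of which Phka2 is the liver alpha subunit. Phosphorylation by kinases such as Gsk3b inhibits the synthase. Protein phosphatase 1, held on the particle by the subunits Ppp1r3b, Ppp1r3c and Ppp1r3g, activates the synthase and switches the phosphorylase off. Much of this control acts on proteins, which arrays do not read, while the RNA of several members is known to follow feeding and the circadian clock.

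Values are log2 signals, so that a difference of 1 is a doubling. Array medians lay between 4.98 and 5.01. Replicate 3 of each group stood apart by high signal of Kdm5d, Uty and Eif2s3y, genes of the Y chromosome (means of 7.83 with GFP and 7.67 with CREB-H, against 3.15 to 3.39 on the other arrays). Xist ran the other way, with 4.43 and 3.75 on these 2 arrays against 10.83 to 11.35 on the others. Differences of the members are therefore also given for the 4 arrays with low Y-linked signal, called Y-negative here, and for the pair with high Y-linked signal, called Y-positive. The supplied gene Creb3l3 read 6.55, 5.93 and 6.40 with GFP and 6.73, 7.25 and 7.58 with CREB-H, higher on every CREB-H array. Where its probes lie was not given, so transcripts of the vector and of the knockout allele could not be told apart. The hepatocyte markers Alb and Ttr read 13.76 to 13.87 and 13.39 to 13.50 over the 6 arrays, near the top of the scale. The mean of all 8 hepatocyte markers was 12.02 on GFP replicate 3 and 12.21 to 12.30 on the other arrays. Tat, Cps1, Hnf4a and Ass1 were lowest on that array. Alb, Ttr and Apoa1 were not lowest there, and Serpina1c was highest there (13.45).

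No glycogen gene passed the test for a difference between the groups. With limma and Benjamini-Hochberg adjustment over all probe sets, 0 of 9 had an adjusted p under 0.05, where 2 of the 41345 probe sets did (0.00484%). At an unadjusted p under 0.05 there were 2 of 9, Gys2 and Ugp2, both higher with CREB-H, beside 6.89% of all probe sets. Ugp2 lost this in the limma fit over all probe sets when replicate 1 or 2 of GFP was left out (unadjusted p 0.114 and 0.106), or replicate 1 or 3 of CREB-H (0.094 and 0.0972), which leaves 1 of 9. Other omissions added genes to Gys2 and Ugp2. Without GFP replicate 3 these were Phka2 (unadjusted limma p 0.00289) and Ppp1r3b (0.0491, lower with CREB-H). Without CREB-H replicate 2 it was Pygl (0.0351, lower with CREB-H). The arrays of the groups did not overlap in 1 of 9, Gys2, beside 12.3% of all probe sets, which is near the share over the array as a whole. Of the 9 genes 5 were higher and 4 lower, with a median log2 difference of 0.04 against -0.015 over all probe sets. Described 1 by 1, Gsk3b varied least, and the phosphatase subunits varied between mice of the same group by more than the groups differed.

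**Figure D1:**
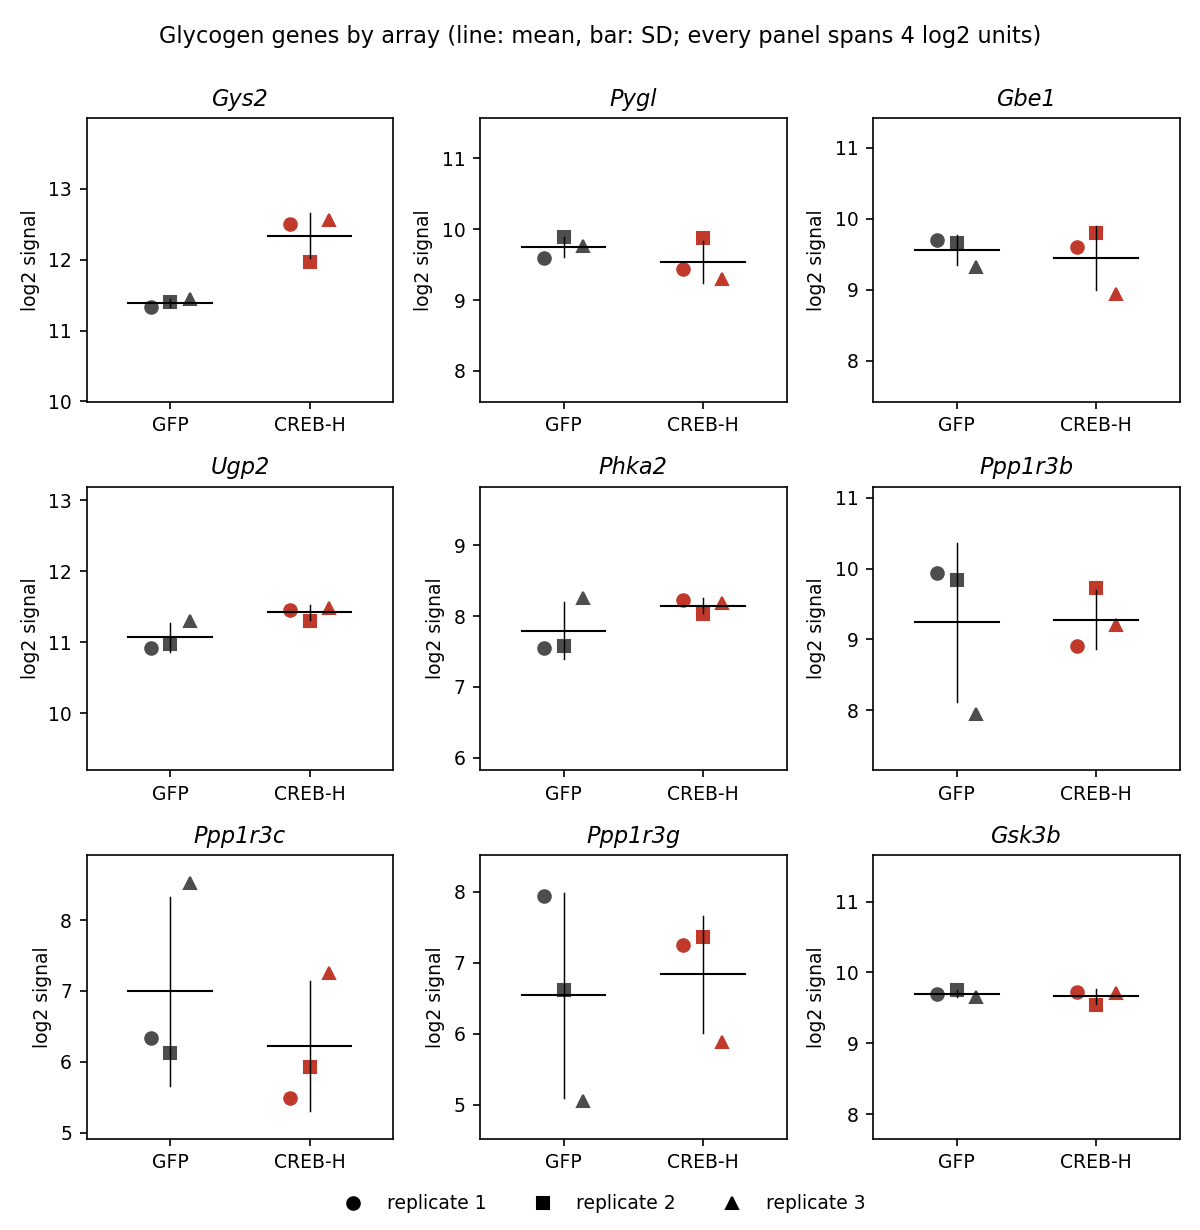
Log2 signal of the 9 glycogen genes (vertical axes, each spanning 4 log2 units) on the 3 GFP and 3 CREB-H arrays; points are arrays, symbols give the replicate number, horizontal lines the group mean and vertical bars the SD. Gys2 is higher on all 3 CREB-H arrays, Gsk3b is nearly flat, and Ppp1r3b, Ppp1r3c and Ppp1r3g scatter most, with replicate 3 at an extreme of the GFP group in each.

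Gys2, the liver glycogen synthase, was the member with the clearest separation. Its signal (probe set 17472497, Entrez 232493) was 11.33, 11.40 and 11.45 on the GFP arrays and 12.50, 11.97 and 12.56 on the CREB-H arrays. The control mice lay within a narrow band, every CREB-H mouse lay above it, and CREB-H replicate 2 was the lowest of its group. The means were 11.39 ± 0.06 with GFP and 12.34 ± 0.32 with CREB-H (SD, n = 3 per group). They differed by 0.95 on the log2 scale, with a standard error (SE) of 0.17. This is 1.93-fold, with a 95% confidence interval of 1.46 to 2.56. In limma the unadjusted p was 0.000898 and the adjusted p 0.556, so the difference did not pass over the whole array. The exact permutation p, two-sided, was 0.1, below which 3 against 3 arrays cannot go. The difference was 0.87 on the Y-negative arrays and 1.11 on the Y-positive pair. In whole liver, a change in the number of cells of a type and a change in RNA per cell cannot be told apart. The 8 hepatocyte markers had a median difference of 0.03, with 5 higher and 3 lower. All 6 Kupffer cell and macrophage markers were higher with CREB-H (median 0.44, lowest limma adjusted p 0.725), and their mean signal was 7.94 to 8.82 on the GFP arrays and 8.35 to 9.12 on the CREB-H arrays. Of the liver endothelial markers 4 were higher and 1 lower (median 0.17), and of the stellate cell and fibroblast markers 5 and 1 (0.16). Of the cholangiocyte markers 3 were higher and 1 lower (0.19), and of the lymphocyte and neutrophil markers 2 and 4 (-0.11). The part of any of these cells in the result was not tested.

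The other synthesis enzymes did not share the separation of Gys2. Ugp2, which makes the UDP-glucose that the synthase uses (probe set 17260916, Entrez 216558), read 10.92, 10.98 and 11.30 with GFP and 11.46, 11.30 and 11.49 with CREB-H. The groups met at GFP replicate 3 and CREB-H replicate 2. The log2 difference was 0.35 (SE 0.13), or 1.27-fold with an interval of 1.02 to 1.59, and the limma adjusted p was 0.708. On the Y-negative arrays it was 0.43, and on the Y-positive pair 0.19. Gbe1, the branching enzyme (probe set 17326567, Entrez 74185), read 9.71, 9.65 and 9.32 with GFP and 9.60, 9.80 and 8.94 with CREB-H. Replicate 3 was the lowest array in each group, and the groups overlapped throughout. Its log2 difference was -0.11 (SE 0.24, 95% interval -0.68 to 0.45), which turned to 0.14 without CREB-H replicate 3 and to 0.023 on the Y-negative arrays, with -0.38 on the Y-positive pair.

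On the breakdown side, Pygl, the liver phosphorylase (probe set 17281721, Entrez 110095), read 9.60, 9.88 and 9.76 with GFP and 9.44, 9.88 and 9.30 with CREB-H. CREB-H replicates 1 and 3 were below all GFP arrays, while replicate 2 was among them. The log2 difference was -0.21 (SE 0.17, 95% interval -0.62 to 0.20, limma adjusted p 0.876), and it was -0.38 without CREB-H replicate 2, -0.09 without CREB-H replicate 3, -0.08 on the Y-negative arrays and -0.47 on the Y-positive pair. Phka2, the alpha subunit of the kinase that activates the phosphorylase (probe set 17539303, Entrez 110094), read 7.56, 7.57 and 8.25 with GFP and 8.23, 8.03 and 8.18 with CREB-H. GFP replicate 3 was the highest of all 6 arrays, and the other GFP arrays were the lowest. The log2 difference was 0.35 (SE 0.20, limma adjusted p 0.813) over all arrays and 0.58 without GFP replicate 3, where the adjusted p was 0.566. On the Y-negative arrays it was 0.56, and on the Y-positive pair -0.07.

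Synthase and phosphorylase were set against each other within each array, since a shift common to both cancels there. Gys2 minus Pygl was 1.74, 1.51 and 1.68 on the GFP arrays and 3.06, 2.10 and 3.26 on the CREB-H arrays. Each CREB-H mouse exceeded each control, and CREB-H replicate 2, with the lowest Gys2 and the highest Pygl of its group, lay closest to them. The means were 1.64 ± 0.12 and 2.81 ± 0.62 (SD, n = 3 per group), a difference of 1.16 on the log2 scale. The exact two-sided permutation test gave p = 0.1, the least possible here. The difference was 1.52 without CREB-H replicate 2 and 0.95 on the Y-negative arrays. Gys2 itself differed by 0.95 and Pygl by -0.21, and since Pygl is subtracted, both widened the difference. It is a difference of 2 probe signals, neither of which passed the test, and says nothing of enzyme activity.

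**Figure D2:**
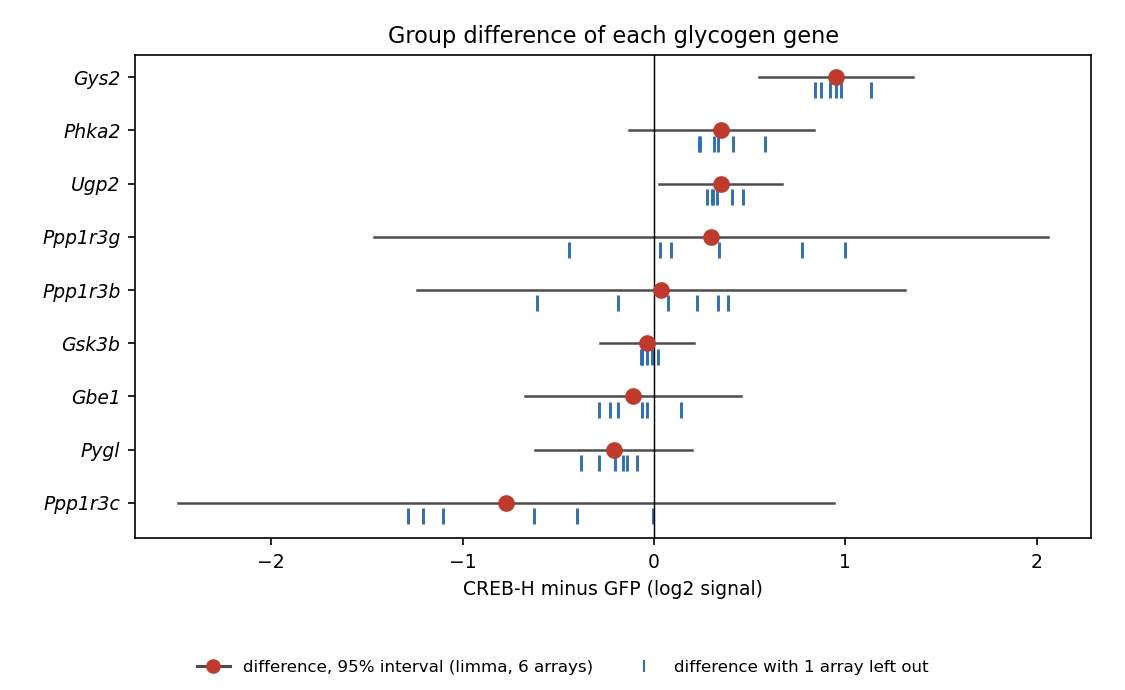
Log2 difference, CREB-H minus GFP (horizontal axis), of each glycogen gene; red points and grey lines give the limma estimate and its 95% interval over 6 arrays, and blue ticks the estimate with 1 array left out. The interval of Gys2 (0.55 to 1.35) and that of Ugp2 (0.03 to 0.67) lie above 0, and the intervals of the 3 phosphatase subunits are the widest.

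The kinase Gsk3b, which phosphorylates and thereby inhibits the synthase (probe set 17325560, Entrez 56637), varied least. It read 9.70, 9.75 and 9.65 with GFP and 9.73, 9.55 and 9.72 with CREB-H. All 6 arrays lay within 0.21 log2 units, a range of 1.15-fold. Its log2 difference was -0.04 with a 95% interval of -0.28 to 0.21, and it was -0.09 on the Y-negative arrays and 0.07 on the Y-positive pair. Among the 9 genes this is the narrowest interval, and it holds no change beyond 0.28 in either direction. Its spread within groups was greater than that of 9.56% of all probe sets.

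The subunits that bring protein phosphatase 1 to glycogen behaved differently from the enzymes: they spread widely between mice of the same group. Their within-group SDs were 0.85 for Ppp1r3b, 1.14 for Ppp1r3c and 1.18 for Ppp1r3g, above those of 98.9%, 99.6% and 99.7% of all probe sets, where the median was 0.18. Such a spread limits the comparison, since the 95% intervals of the group difference then ran over more than 2 log2 units in each.

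Ppp1r3c, also called PTG (probe set 17364208, Entrez 53412), read 6.33, 6.12 and 8.53 with GFP and 5.49, 5.93 and 7.25 with CREB-H. Replicate 3 was far above the rest of its group in both, and the 6 arrays spanned 8.24-fold. The log2 difference was -0.77 (SE 0.72, 95% interval -2.48 to 0.94, limma adjusted p 0.89), and -0.0070 without GFP replicate 3. On the Y-negative arrays the groups did not overlap, as in 39.7% of all probe sets there. The difference was -0.52 on those arrays and -1.28 on the Y-positive pair. A fit with a term for that split gave the same difference of -0.77 with an SE of 0.21 and an unadjusted limma p of 0.0101, but an adjusted p of 0.46. Ppp1r3g, a subunit of the same family (probe set 17286568, Entrez 76487), read 7.94, 6.62 and 5.05 with GFP and 7.26, 7.37 and 5.88 with CREB-H. Here replicate 3 was the lowest of each group, the reverse of Ppp1r3c, and the arrays spanned 7.38-fold. The log2 difference was 0.30 (SE 0.74, 95% interval -1.46 to 2.06), which turned to -0.445 without GFP replicate 3 and was 1.00 without GFP replicate 1. It was 0.033 on the Y-negative arrays and 0.83 on the Y-positive pair.

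Ppp1r3b, the subunit also called GL (probe set 17500543, Entrez 244416), read 9.94, 9.84 and 7.95 with GFP and 8.90, 9.73 and 9.21 with CREB-H. GFP replicate 3 was the lowest of all 6 arrays, and the other GFP arrays were the highest. Over all arrays the log2 difference was 0.04 (SE 0.54, 95% interval -1.24 to 1.31). It was -0.61 without GFP replicate 3, -0.19 without CREB-H replicate 2 and -0.57 on the Y-negative arrays, against 1.26 on the Y-positive pair. The further probe set of the gene (17500548) read 8.40, 8.25 and 7.02 with GFP and 6.83, 7.68 and 7.69 with CREB-H, a log2 difference of -0.49 (SE 0.41). On that probe set the low GFP replicate 3 was seen again, while CREB-H replicate 1 was lower still. The direction of Ppp1r3b therefore depends on the probe set and on a single array.

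The promoters of Ppp1r3c and Ppp1r3g are shown because these genes spread most and ran in opposite directions on the replicate 3 arrays, and that of Pygl because it is the counterpart of Gys2. The RefSeq table of assembly GRCm38.p6 held promoters of 7 of the 9 genes, without Gys2 and Ppp1r3b. The 250 bases before the start were searched on both strands for TGACGTCA, the cyclic AMP response element bound by CREB-type factors, for its half-site TGACG, which the full element contains, and for the E-box CACGTG, bound by clock and carbohydrate-response factors. Capitals mark the matches, and each sequence runs 5′ to 3′ on the strand of the gene.
Ppp1r3c (chr19:36736605-36736854, minus strand): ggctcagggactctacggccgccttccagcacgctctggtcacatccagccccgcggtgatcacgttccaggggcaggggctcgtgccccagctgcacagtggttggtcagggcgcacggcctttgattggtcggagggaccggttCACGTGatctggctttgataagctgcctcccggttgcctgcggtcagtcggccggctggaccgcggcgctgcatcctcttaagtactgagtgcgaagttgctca
Ppp1r3g (chr13:35967656-35967905, plus strand): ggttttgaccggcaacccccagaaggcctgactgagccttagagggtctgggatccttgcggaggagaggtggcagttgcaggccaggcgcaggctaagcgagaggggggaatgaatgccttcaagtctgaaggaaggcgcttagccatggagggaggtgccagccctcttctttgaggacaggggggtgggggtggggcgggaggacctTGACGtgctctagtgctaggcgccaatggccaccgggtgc
Pygl (chr12:70227684-70227933, minus strand): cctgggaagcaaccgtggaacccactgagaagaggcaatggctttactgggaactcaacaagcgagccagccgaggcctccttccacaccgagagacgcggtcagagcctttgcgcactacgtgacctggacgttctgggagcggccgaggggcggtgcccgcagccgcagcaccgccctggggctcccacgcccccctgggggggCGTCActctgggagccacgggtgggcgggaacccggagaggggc
Ppp1r3c held an E-box 99 to 104 bases before the start, a motif present in 6.02% of the 32851 promoter windows of that length. The half-site TGACG was found in Ppp1r3g, 36 to 40 bases before the start, and on the opposite strand in Pygl, 40 to 44 bases before it, and 17.8% of all windows hold it. The full element was found in 0 of the 7 genes and in 1.55% of all windows. The E-box was thus found in 1 and the half-site in 2 of the 7 genes. The promoters shown are those with a match, and Gbe1, Ugp2, Phka2 and Gsk3b held none. A match describes letters in this window and does not show that a factor binds there.

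Because several members are known to follow the clock, the clock genes were read on the same arrays. Of 15 measured, 8 were higher and 7 lower with CREB-H, with a median of 0.30 against -0.015 over all probe sets. Past the adjusted limma threshold there were 0, and at an unadjusted p under 0.05 there was 1, beside 6.89% of all probe sets. The clock genes with the lowest unadjusted limma p were Nr1d2 (0.34, SE 0.14), Ciart (0.58, SE 0.27), Clock (-0.54, SE 0.27) and Dbp (0.82, SE 0.43). Their adjusted p ran from 0.72 to 0.797. Several of these differed by the Y-linked split: Dbp had 1.54 on the Y-negative arrays and -0.63 on the Y-positive pair, and Clock -0.84 and 0.044. The repressor gene Nr1d1 and the activator gene Arntl, picked after their values were seen, had the widest ranges over arrays among the clock genes. Nr1d1 read 6.91, 6.46 and 10.25 with GFP and 8.41, 8.79 and 9.32 with CREB-H. Like Ppp1r3c, it was highest on GFP replicate 3 and next on CREB-H replicate 3, and its difference was 1.91 on the Y-negative arrays and -0.93 on the Y-positive pair. Arntl read 7.45, 7.98 and 6.30 with GFP and 5.34, 5.69 and 7.44 with CREB-H. Here CREB-H replicate 3 stood with GFP replicate 1 rather than with its own group, and the difference was -2.20 on the Y-negative arrays and 1.14 on the Y-positive pair. The part of the clock phase of each mouse in the spread of the phosphatase subunits was not tested.

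**Figure D3:**
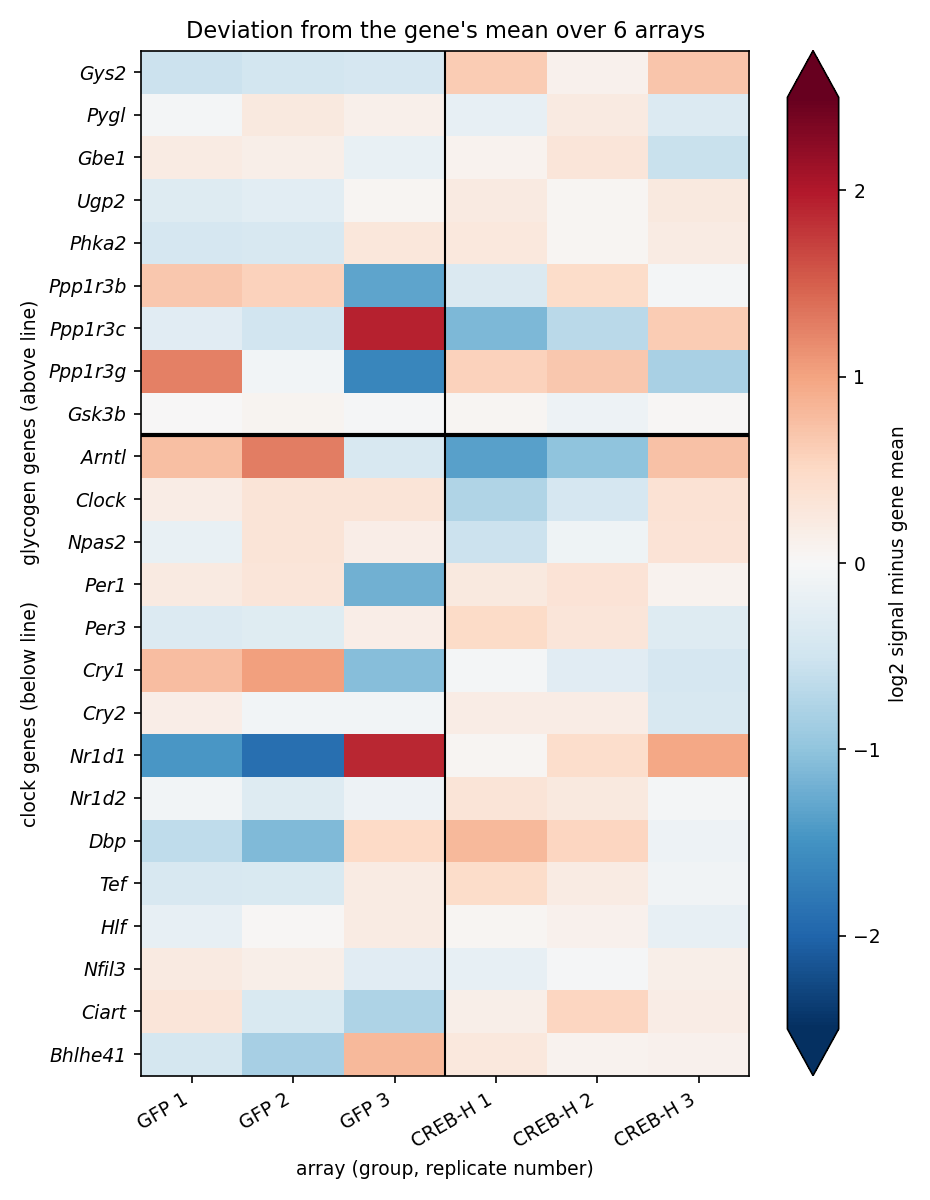
Log2 signal minus the gene's own mean over 6 arrays (colour) for the 9 glycogen genes above the thick line and 15 clock genes below it; columns are arrays, with GFP left of the thin line. Gys2 is below its mean on all GFP arrays and above it on all CREB-H arrays, whereas Ppp1r3c and Nr1d1 are both highest on GFP replicate 3.

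Other genes of glycogen metabolism, including isoforms of muscle and brain, were read from a list. Of the 20 analysed here, 14 were higher and 6 lower, with a median of 0.08, and 0 passed limma's adjusted threshold. The groups did not overlap in 3 of the 20, beside 12.3% of all probe sets. At an unadjusted limma p under 0.05 there was 1 of the 20, beside 6.89% of all probe sets. That gene was Pgm2, a phosphopentomutase of the phosphoglucomutase family, which read 7.01, 6.92 and 6.80 with GFP and 7.45, 7.45 and 7.44 with CREB-H. All CREB-H arrays lay above all GFP arrays and within a narrow band. The log2 difference was 0.54 (SE 0.10, limma adjusted p 0.566). Next by unadjusted p were Ppp1r3a, the muscle phosphatase subunit (0.20, SE 0.10; its signal of 2.81 to 3.16 was under the lower quartile of every array and is not shown to be above background), Gaa, the lysosomal enzyme that digests glycogen (0.24, SE 0.13), and Ppp1cb, a catalytic subunit of the phosphatase (0.17, SE 0.11). A dimmer probe set of Ppp1cb had -0.21 (SE 0.16). The synthase isoform of other tissues, Gys1, differed by 0.03 (SE 0.10). Skeletal muscle markers had mean signals of 4.78 to 4.95 over the 6 arrays, near or below the array medians.

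The genes through which glucose enters and leaves the hepatocyte differed in both directions. Of 9 measured, 5 were higher and 4 lower (median 0.02), and 0 passed limma's adjusted threshold, with 2 at an unadjusted p under 0.05 (6.89% of all probe sets). Slc2a2, the glucose transporter of the hepatocyte, had a log2 difference of 0.47 (SE 0.14) and Pck1, of gluconeogenesis, 0.495 (SE 0.17), and in both the groups did not overlap, as in 12.3% of all probe sets. Slc37a4, which carries glucose 6-phosphate into the endoplasmic reticulum, differed by 0.42 (SE 0.20). G6pc, the phosphatase that frees glucose there, read 12.08, 12.36 and 11.67 with GFP and 11.12, 11.71 and 11.71 with CREB-H. It differed by -0.52 (SE 0.23, limma adjusted p 0.744), the opposite direction to its partner Slc37a4. G6pc had -0.80 on the Y-negative arrays and 0.037 on the Y-positive pair, and Slc37a4 0.13 and 1.00, so the opposite directions were not seen on the pair. In the hormone signalling list of 14 measured genes, 9 were higher and 5 lower (median 0.05), and 0 had an unadjusted or adjusted limma p under 0.05. The glucagon receptor gene Gcgr had 0.45 (SE 0.32), Akt2 -0.15 (SE 0.10), Akt1 0.17 (SE 0.14) and Crtc2 0.15 (SE 0.13).

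**Figure D4:**
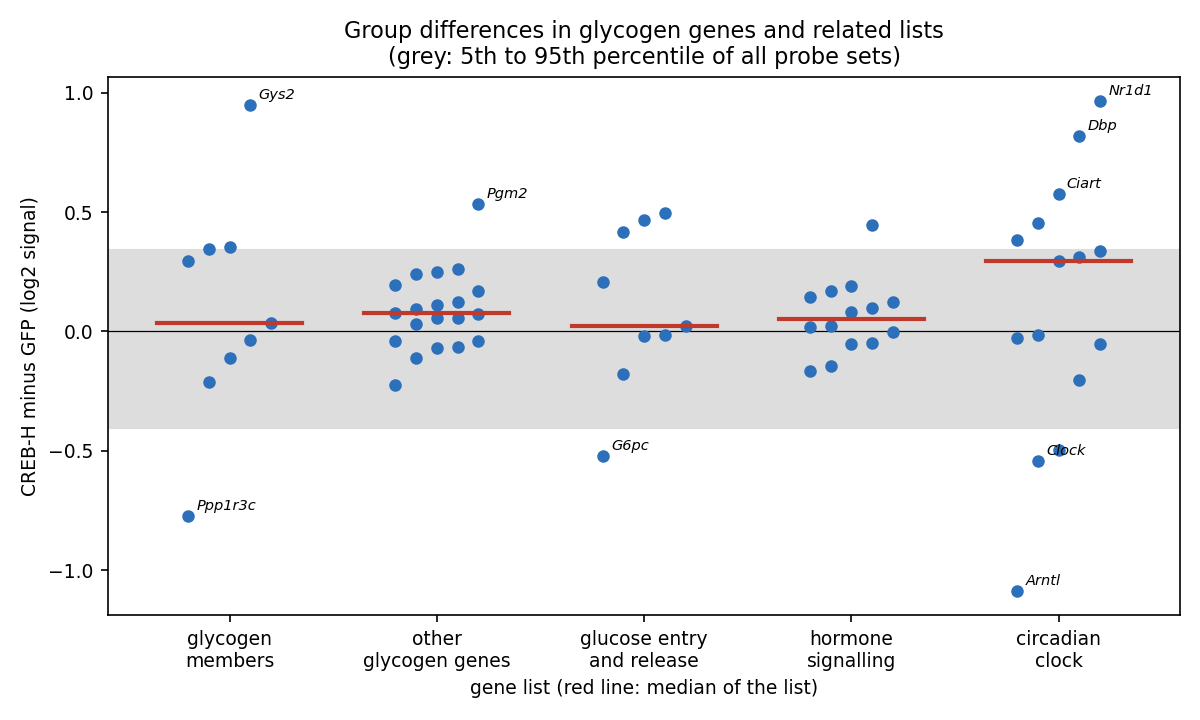
Log2 difference, CREB-H minus GFP (vertical axis), of each gene of the 5 lists; red lines are list medians, and the grey band spans the 5th to the 95th percentile of all probe sets (-0.40 to 0.34). Among the glycogen members Gys2 (0.95, SE 0.17) and Ppp1r3c (-0.77, SE 0.72) lie outside the band and Phka2 and Ugp2 (0.35 each) at its upper edge. Pgm2 (0.54) lies above it among the other glycogen genes. The band does not show the error of a single gene, which was large for Ppp1r3c.

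The genes whose signal most resembled that of Gys2 over the 6 arrays were sought among 2269 genes with an SD of at least 0.3. Apoc2, the activator of lipoprotein lipase, had the highest Pearson r (0.994), followed by Gas6, a ligand of receptor kinases (0.994), Tmem184b (0.990), Ralgps2 (0.988) and Mia3, a factor of cargo export from the endoplasmic reticulum (0.986). Apoc2 read 9.28, 9.32 and 9.54 with GFP and 10.78, 10.27 and 10.93 with CREB-H. As in Gys2, CREB-H replicate 2 was the lowest of its group. All 5 were higher on every CREB-H array than on every GFP array, with log2 differences of 0.57 to 1.91 and limma adjusted p of 0.424 to 0.626. That separation comes with the choice by likeness to Gys2 and is no further result. The groups did not overlap in 12.3% of all probe sets. The points behind each r share the group difference itself, the order was chosen from many genes, and r is given as a description.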

How the data were processed

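Total RNA from 6 livers, 3 per group, was turned into biotin-labelled single-stranded cDNA and read on 1-colour arrays, per the labels' protocols. The deposited table holds log2 signals per probe set and array, for which the submitters' processing notes name the Transcriptome Analysis Console. Its version, summarisation and normalization were not given in the sources used here. A range of 1.42 to 13.9 is the basis for reading the values as log2. Detection calls were not used, and dim probe sets can understate a difference. Genes were named from GEO's platform annotation, taking for each gene the probe set with the highest mean over 6 arrays; 1814 of the 41345 probe sets had several symbols and 16010 none. Coordinates belong to the promoter sequences alone.

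Groups were compared in 1 fit over all probe sets with limma 3.58.1 (lmFit, eBayes) in R 4.3.3, with group as the only term, two-sided tests and Benjamini-Hochberg adjustment at 0.05. The model was tested on simulated data. The alternatives were quantile normalization, median centring, leaving out the dimmest 25% or 50%, limma-trend with and without a robust fit, weighting of arrays, a block for replicate number, a term for Y-linked signal, the 4 Y-negative arrays alone, each array left out, and averaging all probe sets of a gene. Named genes were the 9 members, Creb3l3, up to 4 genes of each related list with the lowest unadjusted p, and the 5 most like Gys2, leaving out predicted genes, Rik symbols, and olfactory, vomeronasal, immunoglobulin and T cell receptor genes. Members and lists were chosen with earlier results of these data known. Figures used matplotlib 3.10.9. No arrays held identical values. The number of arrays limits the precision.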

Additional observations from a re-analysis of the deposited data

Results flagged for a closer look

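For Ppp1r3b and Phka2 the group difference ran in opposite directions on the arrays with and without Y-linked signal. In Ppp1r3b the CREB-H arrays were lower among the 4 arrays without that signal (-0.57) and higher between the 2 with it (1.26), a gap of 1.83. The interaction, fitted with limma over all probe sets and chosen after the data were seen, had an unadjusted p of 0.0164 and an adjusted p of 0.665. In Phka2 the values were 0.56 and -0.07, a gap of -0.63 (limma unadjusted p 0.0415, adjusted p 0.71). Neither passed. The difference on the arrays with Y-linked signal rests on 1 mouse per group, so the spread in this fit comes from the other 4 arrays alone and the lone mice are assumed to vary like them. These are the members, among 9 fitted, whose directions were opposite on every array.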

How the results depend on the processing

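Under the alternatives tried, 0 of 9 glycogen genes and 0 of the other glycogen genes passed the adjusted limma threshold. Over all probe sets tested, 0 to 2 passed, depending on the alternative. The count over all probe sets was 0 with the replicate block and on the 4 Y-negative arrays. It was also 0 with 1 array left out, except without CREB-H replicate 2. In those settings a count of 0 is not particular to glycogen genes. Gys2 lay between 0.84 and 1.14 (limma adjusted p 0.208 to 0.802), and Ugp2, Pygl, Phka2, Ppp1r3c and Gys2 minus Pygl kept their direction. Ppp1r3c did so in sign only, since it ran from -1.29 to -0.0070, the latter without GFP replicate 3. Ppp1r3b reversed with array weights (-0.21), on the 4 Y-negative arrays (-0.57) and with the mean of its probe sets (-0.23), and Gbe1 on the Y-negative arrays (0.023). With 1 array left out the ranges were -0.61 to 0.39 for Ppp1r3b, -0.29 to 0.14 for Gbe1, -0.445 to 1.00 for Ppp1r3g and -0.068 to 0.022 for Gsk3b. The groups did not overlap in 2 genes after median centring (Gys2 and Ugp2, beside 12.3% of all probe sets), in 5 on the Y-negative arrays (beside 39.7% of all probe sets) and in 1 to 4 with 1 array left out (beside 20.8% to 25.1%); fewer arrays separate more easily. Gys2 was among them each time. Its groups did not overlap on all 6 arrays, so settings that only leave out arrays could not give another outcome for it. An overlap count takes no term, so the term for Y-linked signal was not run for it. With the replicate block Gys2 was 0.95 (limma adjusted p 0.491), and 0 in place of 2 probe sets passed; same-numbered arrays correlated in their deviations at 0.08, 0.13 and 0.33, not above 0.1 in every pair, and replicate 1 correlated best with number 2, so the numbers were not taken as pairs. With 3 mice per group, differences within the intervals given were not resolved.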
